A study of Arabidopsis halleri with 24 samples.

Results

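Rosette leaves of plants that did or did not accumulate zinc were compared under high zinc. The comparison rests on 6 of the 24 arrays of the series, 3 titled accumulating bulk and 3 titled non-accumulating bulk, chosen by their titles alone. The labels give the species as Arabidopsis halleri, and its total RNA was read with ATH1 arrays, a design based on the A. thaliana genome. Both groups received 25 µM zinc, as read from the treatment labels, in full mineral medium in a growth room with 10 h of light, 25 °C and 80% humidity. The other groups used here are the control leaves of both bulks, which carry no zinc treatment label, and the high-zinc and control roots of both bulks, with 3 arrays in each group. Replicate 1 of the non-accumulating control roots is titled as that bulk, but its source is given as halleri, and it was kept by its title. Each bulk is, from knowledge of the study, a pool of segregating plants from crossing A. halleri with the non-accumulating A. petraea, and not a line. How many plants went into each, and whether the replicates came from separate plants, is not given in the sources used here, so p-values measure the spread between these arrays.

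A. halleri is known for holding zinc in its leaves at levels that harm most plants. Membrane carriers move the metal into roots, up the xylem and into leaf vacuoles: ZIP proteins import metal into the cytosol, MTP and HMA proteins export it or load it into compartments, and nicotianamine and metallothioneins bind it. Zinc excess also competes with iron, and iron deficiency genes are a common readout of that competition.

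The 6 arrays were similar in their whole profiles. On the log2(signal + 16) scale, the correlation across probe sets lay between 0.868 and 0.940 within the accumulating group, between 0.902 and 0.959 within the non-accumulating group, and between 0.864 and 0.960 for arrays of different bulks. The highest of these, 0.960, joined replicate 3 of the accumulating with replicate 3 of the non-accumulating bulk. Replicate 3 thus stood apart from replicates 1 and 2 in both bulks. Marker probe sets were compared between organs. Rubisco activase (RCA), a mesophyll marker, had signals of 1503 to 6608 in the 6 high-zinc leaf arrays and 17.1 to 109 in the 12 root arrays. The root hair expansin gene EXPA7 had signals of 18.5 to 64.2 in high-zinc leaves and 64.6 to 179 in high-zinc roots. In control roots it had 40.8 to 167, which overlapped the high-zinc leaves. RCA was thus separated between these leaves and all roots, whereas EXPA7 was separated, narrowly, only from high-zinc roots. For actin, the 3' signal over the 5' signal, a sign of RNA integrity, was in log2 -0.38 to -0.18 in accumulating and -0.66 to -0.53 in non-accumulating arrays on one control set, without overlap. On a second control set it was 1.26 to 1.52 and 1.31 to 1.56, and the groups overlapped. For GAPDH the groups overlapped on both control sets. The ratio was -0.07 to 0.24 in accumulating and -0.34 to 0.02 in non-accumulating arrays on the first, and 1.35 to 1.59 and 1.38 to 1.55 on the second. The part of RNA integrity in the differences below was not tested.

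Of 22746 probe sets, 1 passed at an adjusted p under 0.05, which is 0.0044% of those tested, and it represents AT3G46930, which encodes a Raf-like protein kinase. Its signal was 4.13, 2.66 and 3.85 in replicates 1 to 3 of the non-accumulating bulk and 27.0, 26.6 and 23.8 in those of the accumulating bulk. The accumulating arrays were all higher and lay close together. Accumulating arrays averaged 25.8 ± 1.74 (SD, n = 3), against 3.55 ± 0.781 (SD, n = 3) without accumulation. The log2 difference was 1.10 (SE 0.10, 95% interval 0.88 to 1.31), with an adjusted p of 0.00387 in limma. All of these signals lay below 53.3, the median of all leaf signals. In whole leaves, fewer cells of a type and less RNA per cell cannot be told apart. The call was lost with a pseudocount of 1 (log2 difference 2.57, adjusted p = 0.125), with only the 6 arrays in the fit (0.898), with all 24 arrays in 1 fit (0.594) and without replicate 2 of the non-accumulating group (0.0578). It was also lost in replicates 1 and 2 alone (0.253).

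The control leaves gave the same order for AT3G46930. Their arrays are not among the 6 compared, but their spread entered the fit that called this gene. They are therefore not an independent check of the call. There its signal was 3.91, 2.02 and 2.62 in the non-accumulating bulk and 7.59, 8.67 and 9.46 in the accumulating bulk, again without overlap, and the log2 difference was 0.38. The bulk difference in high zinc exceeded that in control leaves by 0.71 (SE 0.14), with an unadjusted p of 0.000285 and an adjusted p of 1. In high-zinc roots the non-accumulating arrays gave 5.09, 5.81 and 22.7 and the accumulating arrays 36.4, 22.7 and 26.7, with a shared value at the edge of both groups. The control roots did not keep this order. There the non-accumulating arrays gave 4.05, 34.8 and 48 (mean 29) and the accumulating arrays 17.9, 4.45 and 20.3 (mean 14.2), which overlapped. The 4.05 came from the array whose source is given as halleri, and without it every accumulating control root array was lower.

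Over the whole table, limma gave 829 probe sets an unadjusted p under 0.05, or 3.64% of those tested, where 1137 would be the number under evenly spread p-values. Of these, 466 were higher in the accumulating bulk (2.05%) and 363 lower (1.60%). The number with an unadjusted p under 0.05 was 1377 with the replicate number as a block and 2289 with array weights. Leaving out accumulating replicate 3 gave 1667, and keeping only replicates 1 and 2 of each leaf group gave 1918. Other settings gave fewer than 829, with 724 for only the 6 arrays compared and 774 for robust moderation. Without accumulating replicate 2 the number was 686, and without non-accumulating replicate 1 it was 699. The groups did not overlap in 1738 probe sets (7.64%), with the accumulating bulk higher in 915 (4.02%) and lower in 823 (3.62%). The log2 difference exceeded 2-fold in 138 probe sets (0.607%). The median half-width of the unadjusted 95% interval was 0.59 on the log2 scale, so smaller differences were mostly not detectable even before adjustment. After adjustment only 1 probe set passed, so nearly all differences over 2-fold were not called either.

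**Figure D1:**
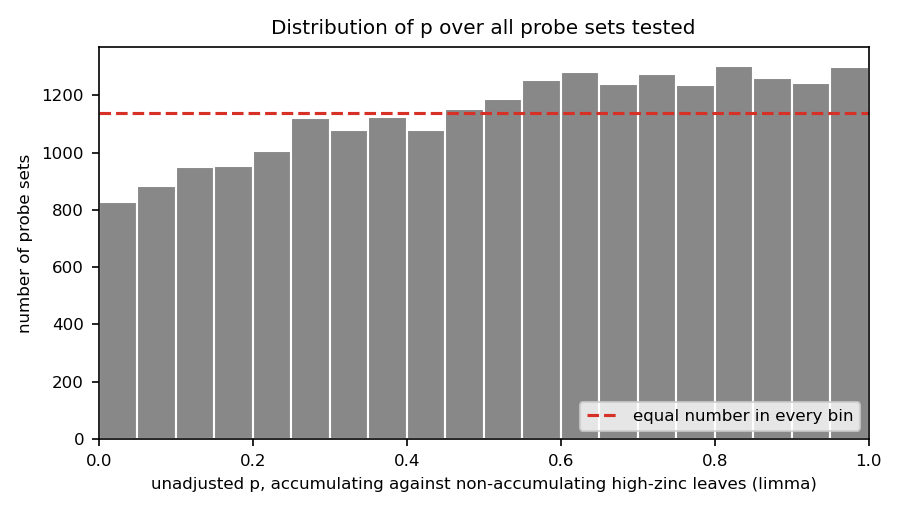
Number of probe sets (vertical axis) in 20 equal bins of unadjusted p (horizontal axis) for accumulating against non-accumulating high-zinc leaves, with a dashed line at an equal number in every bin. The lowest bin holds 829 probe sets, under the line at 1137.

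Among the 12 genes named for the widest positive differences, which ran from 1.06 to 1.78, 0 passed at the adjusted threshold. They had to have an unadjusted p under 0.05, no overlap between the groups and a group mean above 53.3, so their separation is a condition and not a result. The chitinase-family gene AT2G43590 gave 837, 1234 and 1257 in the non-accumulating and 4158, 2585 and 2379 in the accumulating bulk, a log2 difference of 1.42 (SE 0.29, adjusted p = 0.993). The lowest accumulating array was thus well above the highest non-accumulating one.

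AT2G20450, which encodes a ribosomal protein of the large subunit, gave 60.2, 12.5 and 40.9 against 109, 146 and 172, a log2 difference of 1.65 (SE 0.35). In control leaves its bulks overlapped, at 70.2 to 149 and 133 to 150, and lay above the non-accumulating high-zinc arrays. With all 24 arrays in 1 fit this gene passed (adjusted p = 0.0378). A second ribosomal gene, AT4G30800, which encodes a small-subunit protein, gave 56.2, 31.4 and 41.8 against 92.5, 174 and 74.3, a difference of 1.08. LSM6A, a subunit of the ring that binds U6 small nuclear RNA, gave 69.7, 135 and 57.1 against 237, 458 and 155, a difference of 1.48 (SE 0.47). Its arrays varied more than 2-fold within each bulk and barely separated.

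AT4G38080 had the largest positive difference of the 12, at 1.78 (SE 0.47), from signals of 2.25, 18.6 and 10.5 against 59.4, 183 and 28.6. The calmodulin-binding family gene IQD24 differed by 1.3, the class III peroxidase gene Prx37 by 1.14 and AT5G09240, of a single-stranded DNA-binding coactivator family, by 1.15. Prx37 means were 45.5 and 117 in these leaves and 632 and 692 in high-zinc roots, non-accumulating bulk first. IQD24 went the other way, with 18.7 and 64.7 in these leaves and 5.08 and 6.17 in high-zinc roots. The part of root tissue in these differences was not tested. AT5G41685, for a small subunit of the mitochondrial protein import pore, differed by 1.26. The glyoxalase-family gene AT5G48480 differed by 1.18, AT3G19030 by 1.07 and AT5G16960, of the zinc-binding dehydrogenase family, by 1.06. The 13th gene in this order differed by 1.01.

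Among the 12 widest negative differences, AT2G41090, a calmodulin-like gene, was the most extreme. Its signal was 66.6, 247 and 105 in the non-accumulating bulk and 3.52, 2.03 and 4.92 in the accumulating bulk, a log2 difference of -2.83 (SE 0.74, unadjusted p = 0.00256, adjusted p = 1). In control leaves the 2 bulks overlapped, with 5.64, 121 and 2.27 against 5.17, 53.0 and 2.37, so replicate 2 was high in both. The size depends on the pseudocount, and was -4.81 with 1 and -1.49 with 64. AT4G01410, of a hydroxyproline-rich late embryogenesis abundant family, gave 59.2, 81.5 and 44.6 against 7.63, 9.54 and 13.1, a difference of -1.55 (SE 0.28, adjusted p = 0.659). In control leaves its groups overlapped and the difference was 0.16. The interaction of bulk and zinc for AT4G01410 had an unadjusted p of 0.00126 and an adjusted p of 1.

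PAM68, an assembly factor of photosystem II, gave 482, 467 and 694 in the non-accumulating and 203, 180 and 435 in the accumulating bulk, a difference of -1.05 (SE 0.28). In control leaves it gave 767, 747 and 847 against 650, 590 and 599, lower in every accumulating array, with a difference of -0.35. The glucosinolate side-chain gene AOP3, a dioxygenase gene, gave 128, 67.0 and 477 against 53.3, 61.3 and 41.2, a difference of -1.42 (SE 0.50). Without replicate 3 of the non-accumulating bulk the AOP3 difference was -0.70. SDP1, a lipase gene that breaks down storage oil, differed by -1.02, the subtilase gene AT3G14240 by -0.97, the histone H2B-family gene AT1G08170 by -1.13 and the DUF642-family gene AT2G34510 by -1.12. AT1G35970, AT2G27730, AT1G35280 and PEL1 differed by -1.26, -1.08, -0.97 and -0.96, and the probe set of AT1G35280 can cross-hybridise. The 13th gene differed by -0.92.

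**Figure D2:**
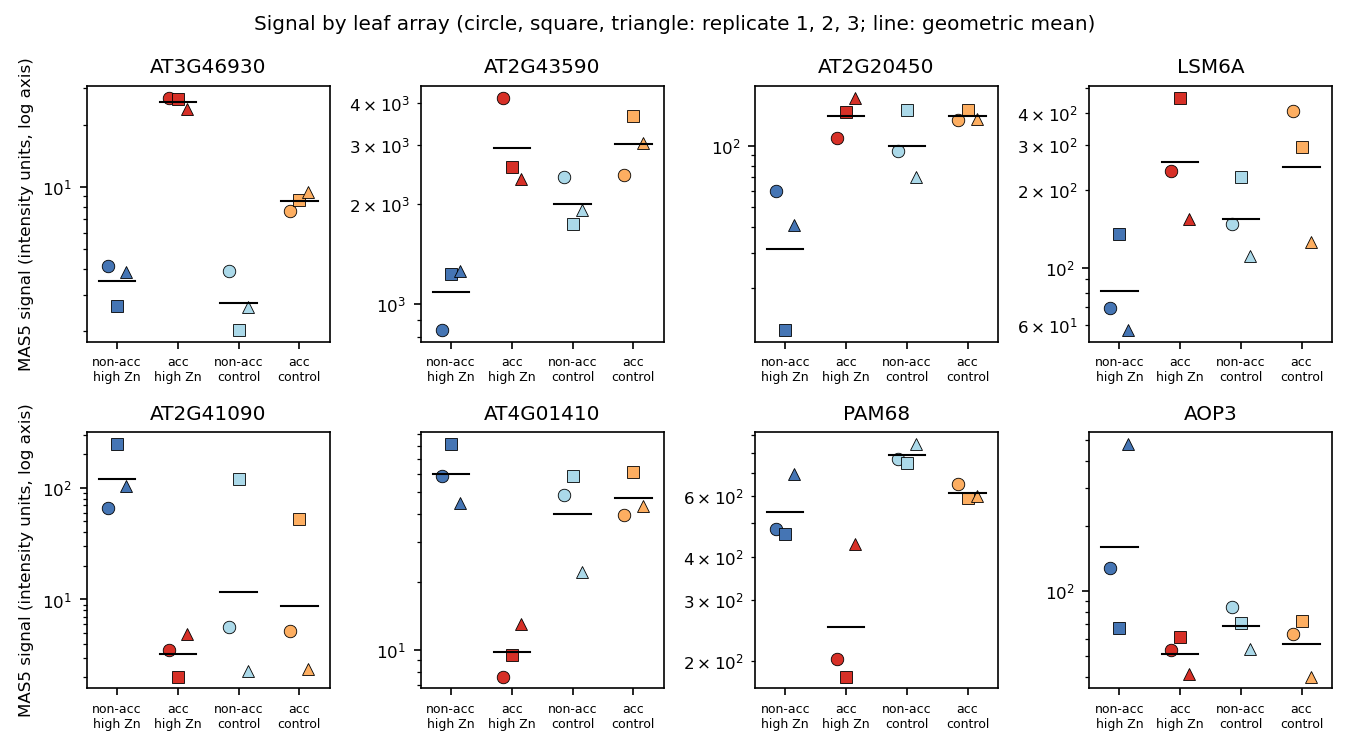
MAS5 signal (log axis, intensity units) of 8 named genes in the 12 leaf arrays, by bulk and zinc supply, with one symbol per replicate number and a line at the geometric mean. In AT3G46930 the 3 accumulating high-zinc arrays sit between 23.8 and 27.0, above the control arrays of the same bulk at 7.59 to 9.46, and in AT2G41090 they sit at or under 4.92.

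The same genes were then read in control leaves and roots, as a description with no test. In control leaves, 11 of the 12 genes chosen for positive differences again had positive differences, as did 39% of all probe sets and 44.2% of the 12291 that met the signal condition. The groups did not overlap in that direction in 7 of the 12, against 2.54% and 3.17%. The median of the 12 was 1.22 in high-zinc and 0.69 in control leaves. The 7 were AT4G38080, AT2G43590, IQD24, AT5G41685, AT5G09240, Prx37 and AT3G19030. The p-value that helped to choose the genes uses the spread of the control arrays too, which favours genes with close control replicates, and the signal condition was often met in the higher bulk alone.

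Of the 12 genes with negative differences, 11 again had negative differences in control leaves, as did 61% of all probe sets and 55.8% of those that met the signal condition. PAM68 and AT1G35970 did not overlap there, 2 of 12 against 6.26% and 4.54%, and the median was -1.10 in high-zinc and -0.33 in control leaves. In high-zinc roots 11 of the 12 had positive differences, where 46% of all probe sets did, and 9 of the other 12 had negative ones, where 54% did, with medians of 0.22 and -0.19. There LSM6A alone of the positive set did not overlap (4.75% of all probe sets), and SDP1, AOP3 and AT1G35280 of the negative set (5.43%). AT5G09240 was close to equal in all 3 comparisons, with log2 differences of 1.15, 1.21 and 1.25. AT5G48480 differed by 1.18 in high-zinc leaves, -0.61 in control leaves and 1.04 in roots, and its interaction of bulk and zinc had an unadjusted p of 0.0166.

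**Figure D3:**
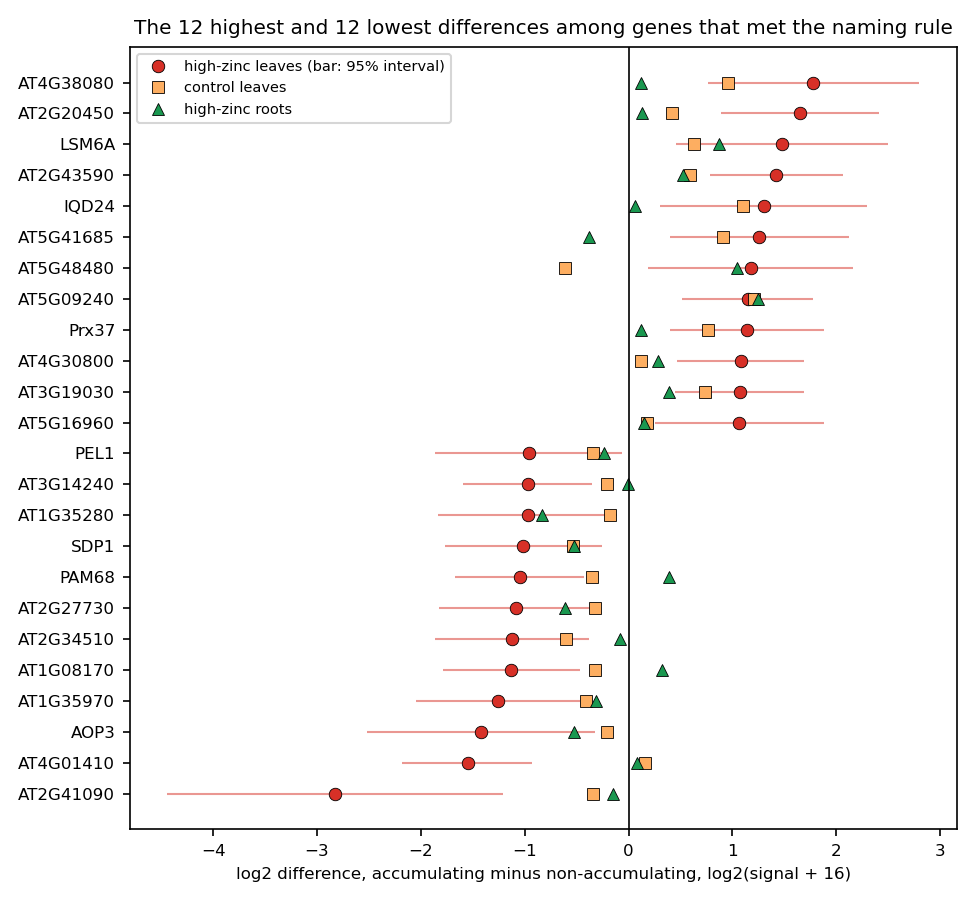
Log2 difference, accumulating minus non-accumulating (horizontal axis), of 24 genes in high-zinc leaves (circles, bar as 95% interval), control leaves (squares) and high-zinc roots (triangles). In 22 of the 24 genes the square lies on the same side of 0 as the circle, most often nearer to 0; AT5G48480 and AT4G01410 are the exceptions.

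All 91 named genes that met the conditions with a positive difference, and all 74 with a negative one, were read in the same way. In control leaves 61 of the 91 had positive differences (39% of all probe sets), and 20 of the 91 did not overlap in that direction (2.54% of all). Of the 74, 47 had negative differences (61%) and 10 did not overlap in that direction (6.26%). Another 3 of each set did not overlap in the opposite direction. In high-zinc roots 53 of the 91 (46% of all probe sets) and 53 of the 74 (54%) kept the sign. There 12 of each did not overlap in that direction (4.75% and 5.43%), and 1 of each was separated the other way. Of the 1738 probe sets separated in high-zinc leaves, 135 (0.594% of all) were separated in the same direction in control leaves, and 53 in the opposite direction. The 135 were 7.77% of the 1738 and 6.74% of the 2002 separated in control leaves. Those 2002 count either direction (8.8% of all probe sets), with the accumulating bulk higher in 2.54% and lower in 6.26%. For high-zinc roots the number was 148 (0.651%), against 58 in the opposite direction. The 148 were 8.52% of the 1738 and 6.40% of the 2314 separated in high-zinc roots. Those 2314 also count either direction (10.2% of all), higher in 4.75% and lower in 5.43%. The correlation of the log2 differences across 22746 probe sets was 0.161 with control leaves and 0.115 with high-zinc roots; these comparisons share no arrays, but probe sets are not independent replicates.

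Separation in the same direction in high-zinc leaves, control leaves and high-zinc roots was found in 10 probe sets (0.044%), 7 with the accumulating bulk higher and 3 with it lower. The 5 with a named gene were picked out after their values were seen. AT2G02050, which encodes a subunit of mitochondrial complex I, gave 302, 295 and 258 in the non-accumulating and 492, 558 and 349 in the accumulating high-zinc leaves, a log2 difference of 0.66 (SE 0.22). It gave 323, 382 and 254 against 591, 522 and 393 in control leaves, and 402, 439 and 363 against 563, 569 and 637 in high-zinc roots. The control roots, at 509, 488 and 432 against 631, 587 and 671, were separated as well, which made AT2G02050 the 1 probe set (0.0044%) separated in all 4 bulk comparisons. In control roots, 3.84% of all probe sets were separated with the accumulating bulk higher and 6.98% with it lower, 10.8% in all. Without the array whose source is given as halleri, which leaves 2 arrays against 3, these shares were 7.61%, 11.2% and 18.8%, and 3 probe sets were separated in all 4 comparisons. AT2G01690 differed by 0.60, 0.77 and 0.66 in high-zinc leaves, control leaves and high-zinc roots, AT5G60260 by 0.61, 0.66 and 0.52 and the dehydrogenase-like gene AT1G01800 by 0.24, 0.61 and 0.34. AT1G13670 was lower, by log2 differences of -0.47, -1.01 and -0.43. Sequence differences between the bulks at the probed sites were not tested.

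Of the zinc and metal transporter list, 8 of 46 genes were named in the probe table, and 0 passed at the adjusted threshold. No HMA gene was among the 8, and 1 of them, bZIP19, is a regulator gene, so the list covers only part of zinc transport. ZIP6 alone of the 8 had an unadjusted p under 0.05, against 3.64% of all probe sets. ZIP6, of the zinc and iron importer family, gave 151, 122 and 178 in the non-accumulating and 235, 357 and 277 in the accumulating bulk. Every accumulating array was higher, by a log2 difference of 0.87 (SE 0.29, 95% interval 0.23 to 1.52, unadjusted p = 0.0117, adjusted p = 1). In control leaves the difference of ZIP6 was 0.78 and in high-zinc roots 0.64, and its bulk by zinc interaction was 0.10 (SE 0.41).

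ZIP9, of the same family, gave 95, 75.5 and 65.5 against 71.7, 46.6 and 63.0, which overlapped, and differed by -0.31 (95% interval -0.81 to 0.19). MTP11, which encodes a carrier known to move manganese in A. thaliana, gave 243, 185 and 565 against 377, 243 and 557. Its difference was 0.32, with an interval of -0.56 to 1.2, and replicate 3 was high in both bulks. Of other MTP-family genes, AT3G58060, known as MTP8, differed by -0.46, AT1G79520 by -0.43 and AT2G04620 by 0.11. The zinc-deficiency regulator gene bZIP19 differed by -0.22. The median of the 8 was -0.118, beside 0.002 for all probe sets. The chelation list had 2 of 20 genes named, and no gene of nicotianamine synthesis was among them. The metallothionein gene MT1C gave 122, 137 and 192 against 79.8, 78.9 and 141, a difference of -0.54 (95% interval -1.13 to 0.05). CCS, the copper chaperone of superoxide dismutase, differed by -0.07.

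The iron deficiency list had 6 named genes of 19, and 0 of 6 had an unadjusted p under 0.05, against 3.64% of all probe sets. With 6 genes, a count of 0 is near that share. AT1G47400, known as the iron signalling peptide gene IMA1, gave 240, 605 and 560 in the non-accumulating and 131, 320 and 195 in the accumulating bulk, a difference of -1.04 with a 95% interval of -2.39 to 0.30. Within each replicate number the accumulating array was lower, although the groups overlapped. In control leaves its signals were 46.1, 45.0 and 203 against 34.3, 59.8 and 193, and the difference was -0.02. BHLH101, an iron-regulated transcription factor gene, also differed by -1.04, from signals of 6.32, 69.0 and 69.1 against 21.9, 4.45 and 8.19. AT3G12900, a coumarin hydroxylase gene, and PYE, for a transcription factor of iron homeostasis, differed by 0.17 and -0.09.

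**Figure D4:**
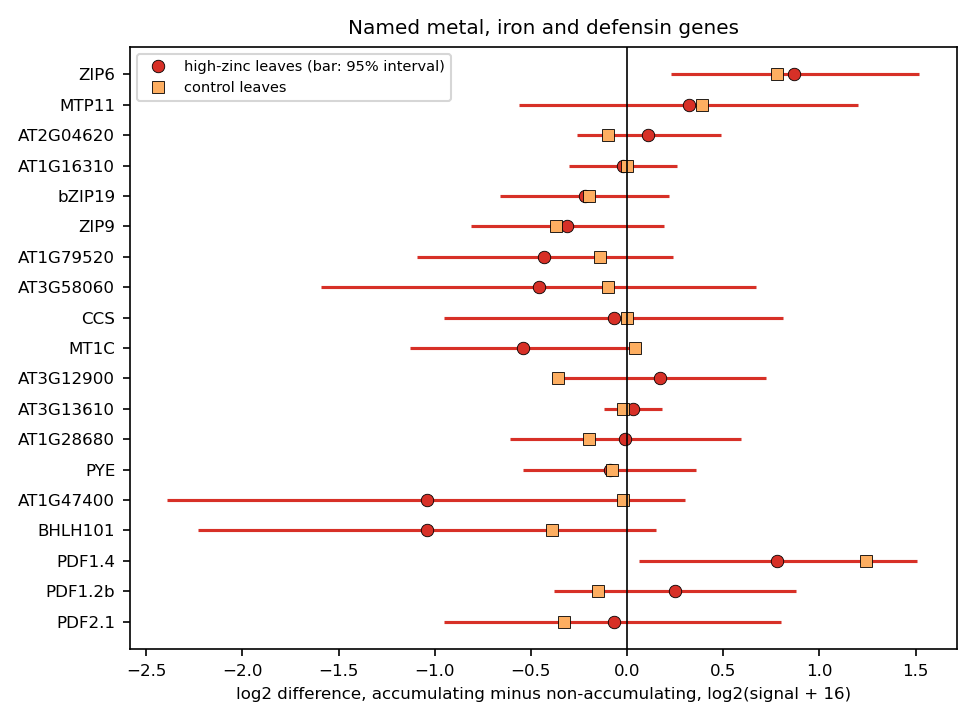
Log2 difference, accumulating minus non-accumulating (horizontal axis), of 19 named metal, iron and defensin genes in high-zinc leaves (circles, bar as 95% interval) and control leaves (squares). Of the 19 intervals, those of ZIP6 and PDF1.4 lie above 0.

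In the defensin list, with 3 of 10 genes named, PDF1.4 gave 160, 130 and 54.4 in the non-accumulating and 218, 198 and 169 in the accumulating bulk. The groups did not overlap, and the log2 difference was 0.78 (SE 0.33, unadjusted p = 0.0363). In control leaves it was 1.24, from 88.6, 82.9 and 77.1 against 170, 334 and 178. PDF1.2b, whose probe set can cross-hybridise, differed by 0.25. In sulfate assimilation, with 3 of 21 genes named, the ATP sulfurylase gene APS4 differed by 0.42 and the sulfite reductase gene SIR by 0.35, whereas APS3, for another ATP sulfurylase, differed by -0.41. APS3 was lower in every accumulating array of high-zinc leaves, at 250, 234 and 232 against 286, 398 and 294. In control leaves APS3 differed by 0.66, and its bulk by zinc interaction had an unadjusted p of 0.0153 and an adjusted p of 1.

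Of 10 named photosynthesis genes, 8 had negative differences and 0 had an unadjusted p under 0.05 in limma, against 3.64% of all probe sets. With the replicate number as a block the number was also 0 with the 12 leaf arrays and 2 with only the 6 arrays compared. Over all 22746 probe sets these 2 fits gave 1377 and 1495. RCA gave 3269, 3493 and 6608 against 1952, 1503 and 5771, a difference of -0.71 (95% interval -1.75 to 0.32). The Calvin cycle gene PRK differed by -0.93, ATPC1, for the gamma subunit of plastid ATP synthase, by -0.40 and the photosystem I gene PSAN by -0.37. In control leaves RCA gave 5374, 5599 and 5268 against 4799, 4299 and 3304, lower in every accumulating array, a difference of -0.40. Within replicates 1, 2 and 3 PRK differed by -1.06, -0.72 and -0.99 and RCA by -0.74, -1.21 and -0.19, while replicate 3 was far above replicates 1 and 2 in both bulks. The list median was -0.324 over all arrays, and -0.47, -0.42 and -0.14 in replicates 1, 2 and 3. It depended on single arrays. The median was 0.054 without non-accumulating replicate 3 and -0.488 without non-accumulating replicate 2. It was -0.192, -0.095 and -0.678 without accumulating replicates 1, 2 and 3. Without the last of these, 4 of the 10 genes had an unadjusted p under 0.05, as did 1667 of all 22746 probe sets. With single arrays left out, PRK ran from -1.76 to -0.07 and RCA from -1.29 to -0.33. The 6 named mesophyll markers, which overlap this list, had mean log2 signals of 9.91 to 11.60 in accumulating and 10.28 to 11.97 in non-accumulating arrays, and their part was not tested. The 69 plastid-encoded genes had a median of 0.068.

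All 4 named root markers had positive differences, as did 11461 of all 22746 probe sets, and their median was 0.447. Of the 4, 1 had an unadjusted p under 0.05 with the accumulating bulk higher, against 2.05% of all probe sets. The number was 2 without non-accumulating replicate 1 or without accumulating replicate 2. Over all 22746 probe sets these settings gave 699 and 686, in either direction. The mean log2 signal of the 4 markers was 5.51 to 5.87 in accumulating and 5.11 to 5.44 in non-accumulating arrays. Only 1 of the 4 had a high-zinc leaf group mean above 53.3, the median of all leaf signals. EXPA7 was the 1 in both counts, with 18.5, 31.5 and 19.8 against 64.2, 45.5 and 55.6 and a difference of 0.86 (SE 0.24). Its control leaves, at 39.2 to 73.8 and 43.7 to 61.6, overlapped with each other. The part of root tissue in the leaf samples was not tested.

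Of the 4 named jacalin-related lectin genes, a family chosen after the values were seen, 3 had an unadjusted p under 0.05 with the accumulating bulk higher, against 2.05% of all probe sets. The number was 1 without replicate 2 or 3 of either bulk and 2 without accumulating replicate 1. Over all 22746 probe sets the former settings gave 686 to 1667 and the latter 753, in either direction. JAL33 gave 63.1, 41.8 and 43.2 against 64.5, 138 and 153, a difference of 0.98. JAL22 gave 101, 128 and 124 against 166, 211 and 294, a difference of 0.82. JAL34 differed by 0.40 and JAL23 by 0.11. In control leaves JAL33 differed by 1.00, JAL22 by 0.28, JAL34 by 0.15 and JAL23 by -0.09.

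In the glucosinolate list 0 of 5 named genes had an unadjusted p under 0.05, against 3.64% of all probe sets. UGT74B1, GTR1 and BCAT4 differed by 0.31, -0.21 and -0.06. Of 8 cold and dehydration genes 0 had an unadjusted p under 0.05, against the same share, with COR15B at -0.38 and LTI30 at 0.22. The clock gene GI differed by -0.49, the stress zinc finger gene STZ by -0.29 (95% interval -3.26 to 2.68) and the Aurora kinase gene AUR1 of cell division by 0.27. STZ signals ranged from 134 to 2928 within the accumulating bulk, and replicate 3 was the lowest in both bulks. The transcription factor gene WRKY6 gave 63.0, 46.3 and 27.8 against 87.4, 65.6 and 90.0, without overlap, and differed by 0.68 (unadjusted p = 0.0464). In the larger families, 4 of 47 UGT glycosyltransferase probe sets had an unadjusted p under 0.05 with the accumulating bulk higher and 1 with it lower, against 2.05% and 1.60% of all probe sets, and of 23 cytochrome P450 probe sets 0 did.

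**Figure D5:**
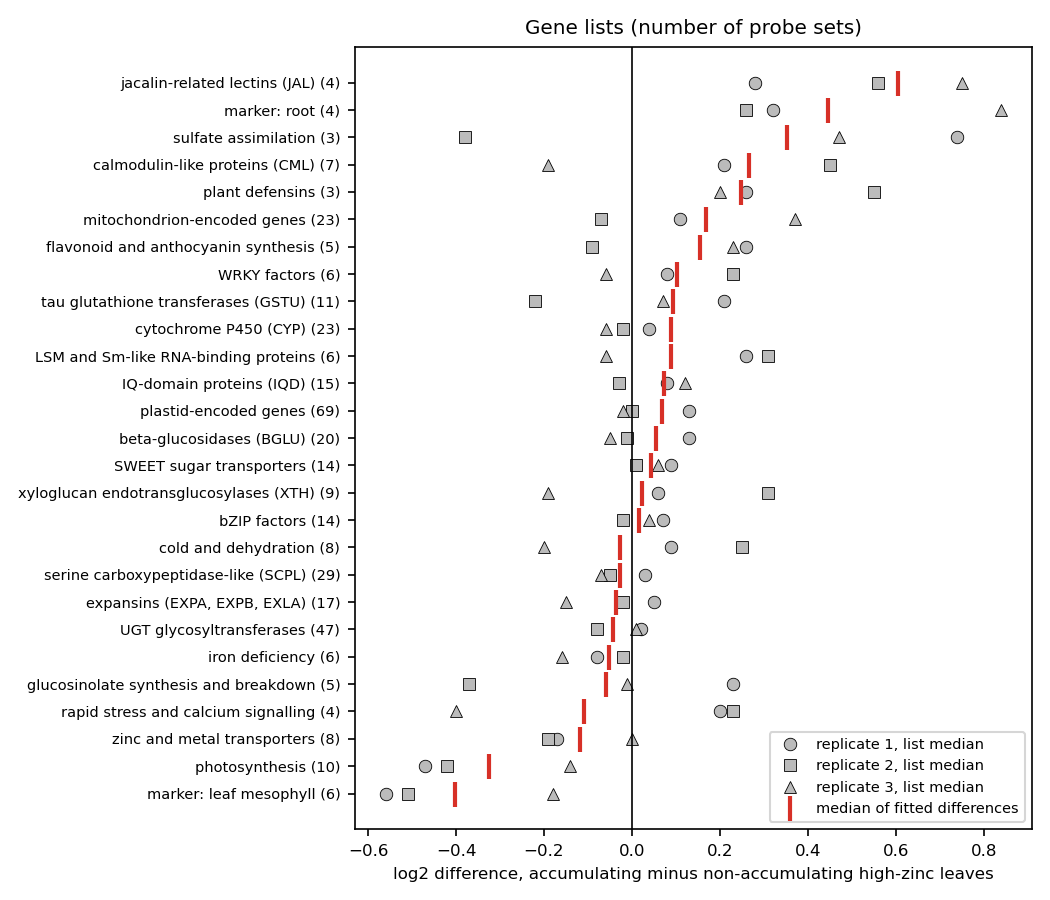
Median log2 difference (horizontal axis) of each gene list with at least 3 probe sets, from the fit (red bar) and within replicates 1, 2 and 3 (symbols). The root marker and jacalin medians are above 0 in all 3 replicates, and the photosynthesis and mesophyll medians below 0, down to -0.56 in replicate 1.

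Tests of the difference between comparisons made no call. In leaves, limma called 0 of 22746 probe sets, with 529 at an unadjusted p under 0.05 (2.33%), for the interaction of bulk and zinc. For the interaction of organ and bulk under high zinc it called 0, with 766 (3.37%). It also called 0 for the bulks in control leaves, with 751 (3.3%), and 0 in high-zinc roots, with 1222 (5.37%). A bulk difference in high-zinc leaves alone was therefore not shown for any gene described here.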

How the data were processed

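The authors deposited linear MAS5 signals in intensity units, per the submitters' processing notes, for 22810 probe sets on 24 arrays. The mean of each array, trimmed of its lowest and highest 2%, was 100, so the scaling was kept. No source used here gives the MAS5 version or settings. The 64 control probe sets were left out. A platform annotation table paired 13513 probe sets with 1 gene and 503 with several, and 8794 were unnamed. Levels of different probe sets were not compared.

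limma 3.58.1 in R 4.3.3 was run on log2(signal + 16) for all 22746 probe sets, with a mean per group, trended moderation and p-values adjusted by Benjamini-Hochberg, called at 0.05. The 12 leaf arrays, the 12 root arrays, and all 24 for the organ interaction, were fitted. The script was tested on simulated data. Groups that do not overlap are those where the lowest array of one bulk exceeds the highest of the other.

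Members and lists were chosen with earlier results of these data known. Of 381 listed genes, 67 were named; 16 further families were set from gene symbols, some after values were seen. The naming rule took probe sets past the threshold, the 12 widest differences in each direction under the stated conditions, and up to 3 members per list. Same-numbered arrays of the high-zinc leaf groups deviated together (r = 0.181, 0.392 and 0.606), and the control leaf groups likewise (0.172, 0.275 and 0.619). In both, accumulating replicate 1 nevertheless correlated best with non-accumulating replicate 2. The main fits did not pair arrays, and the replicate number entered only as a block in alternative fits. In roots r was 0.055, 0.044 and 0.156. No sequences of genes or probes were used here. Precision is limited by the 3 arrays in each group.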

Additional observations from a re-analysis of the deposited data

How the results depend on the processing

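The count of 1 probe set past the threshold between the bulks in high-zinc leaves was kept in 19 of 28 settings. It was 0 with a pseudocount of 1, with a filter on low signals (12962 probe sets, without AT3G46930), with the filter and the replicate block, with only the 6 arrays compared, with these 6 and the replicate block, and with replicates 1 and 2 only, with or without the filter. It was 3 with all 24 arrays in 1 fit. The replicate block over the 12 leaf arrays gave 1, AT3G46930 (adjusted p = 0.0262), and changed no other call. Leaving out single arrays gave 0 to 1. AT3G46930 was called in 19 of the 25 settings that tested it, with log2 differences from 0.41 to 2.57. The count for the control leaves was 2 with all 24 arrays in 1 fit. For high-zinc roots it was 1 with replicates 1 and 2 only, and 0 to 1 when single arrays were left out. For the organ by bulk interaction single omissions gave 0 to 2, with 2 when accumulating replicate 3 of high-zinc leaves was left out and 1 when non-accumulating replicate 2 of control roots was. The bulk by zinc interaction gave 0 in all 24 settings. The cause of these changes was not tested except where fewer probe sets or arrays entered.

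ZIP6 differed by 0.72 to 1.01 in 28 settings, with no adjusted p under 0.382. Of 66 genes given here, 59 kept their sign in every setting that tested them. With replicates 1 and 2 only, with and without the filter, PYE turned to 0.05, CCS to 0.11 and STZ to 0.27. Single omissions gave ranges that include 0 for PYE (-0.28 to 0.02), CCS (-0.33 to 0.33), STZ (-1.10 to 1.05), MTP11 (0.00 to 0.77), AT3G12900 (-0.06 to 0.32), AT3G58060 (-0.90 to 0.25) and BCAT4 (-0.22 to 0.03). Signals near or below the pseudocount limit what can be said of the size of a difference. Of the other named genes, single omissions moved AOP3 from -1.98 to -0.70, PEL1 from -1.31 to -0.43, AT4G38080 from 1.18 to 2.26, ATPC1 from -0.75 to -0.07 and PSAN from -0.81 to -0.06. The settings that combine 2 choices, and the count of probe sets separated in all 4 comparisons without 1 control root array, were added after the data were seen.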
